A study of Mus musculus with 9 samples.

Results

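Expression of a set of hypoxia response genes was examined in mouse N2A neuroblastoma cells in which EXOSC3, a subunit of the RNA exosome, or DDX1, a putative RNA helicase, had been depleted with siRNA. The set holds 10 of the 24318 genes of the deposited tables: Ndufa4l2, Bnip3, Vegfa, Pdk1, Car9, Egln3, Ankrd37, Slc2a1, Ldha and Adm. Ndufa4l2 was selected on its rise in both knockdowns, so its values are given as a description without a test. The other 9 were taken because they are known to respond to low oxygen, with earlier results of these data known. All 9 libraries came from wild-type N2A cells that were labelled as untreated, so no culture was labelled as low in oxygen. Cells from 3 plates per group were transfected with scramble siRNA (scramble), EXOSC3 siRNA (siEXOSC3, labelled as an EXOSC3 knockdown) or DDX1 siRNA (siDDX1, labelled as a DDX1 knockdown) using a lipid reagent. An siRNA lowers its target without removing it, and no rescue library was analysed here. RNA was sequenced after removal of ribosomal RNA, and levels are given as FPKM, fragment counts scaled by transcript length and by library size.

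In oxygenated cells the prolyl hydroxylases Egln1, Egln2 and Egln3 mark the alpha subunits of hypoxia-inducible factor (HIF) for binding by Vhl, which leads to their degradation. When oxygen is low the alpha subunit is spared, pairs with Arnt and binds the letters ACGTG or GCGTG in control regions of its targets. These targets shift cells from respiration to glycolysis, limit mitochondrial activity and recruit blood vessels. HIF is regulated largely at the protein level, which RNA-seq does not measure. In a bulk sample, more cells with a transcript and more transcript per cell cannot be told apart.

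Both siRNAs lowered their targets. Exosc3 fell to 15.5% of its scramble mean in siEXOSC3 and Ddx1 to 24.4% in siDDX1, whereas the nontargeted gene differed by at most 0.04 on the log2 scale (Exosc3 in siDDX1, log2 fold change of -0.04). The depth of the libraries relative to scramble replicate 1, read from the steps of the lowest FPKM values, lay between 0.827 and 1.2, and the number of reads reached per library is not given in the sources used here. Each knockdown was compared with the scramble values of its own table, since the 2 tables were scaled separately (ratio of the same scramble library between tables, 1.01 in all 3). N2A neural markers were expressed (8 of 10 reached 1 FPKM in some library, and Nefl and Nefm did not), while 0 of 5 fibroblast markers and 1 of 5 endothelial markers did so. Of 5 immune markers only Cd74 and Cd68 reached 1 FPKM, and Itgam, a defining marker, was listed at 0 in every library.

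Within the groups, individual libraries stood apart for these genes. Of the 8 members with a mean FPKM of at least 1, all 8 were highest in replicate 2 among the scramble libraries, lowest in replicate 2 among the siEXOSC3 libraries and highest in replicate 2 among the siDDX1 libraries, and 6 of 8 were lowest in siDDX1 replicate 3. Over all genes tested, the corresponding shares were 34.3%, 37.4%, 27.1% and 40.7%. Values of the members without these libraries are given in the accounts of the 2 knockdowns.

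Among the members, sequence upstream of the start was examined first, because it is where the letters bound by HIF can be read. RefSeq promoters (build GRCm38.p6) were matched for 9 of the 10 genes, in 12 entries, and the 250 bases before each start were searched on both strands for ACGTG and GCGTG. The 4 entries printed here show members with matches to ACGTG and with several matches in all. They are written 5′ to 3′ on the strand of the gene, with the matched letters of either strand in capitals. In CACGTG the match to ACGTG is counted once on each strand, and overlapping matches such as CACGCGTG run together.
Ldha, chr7:46845554-46845803, plus strand: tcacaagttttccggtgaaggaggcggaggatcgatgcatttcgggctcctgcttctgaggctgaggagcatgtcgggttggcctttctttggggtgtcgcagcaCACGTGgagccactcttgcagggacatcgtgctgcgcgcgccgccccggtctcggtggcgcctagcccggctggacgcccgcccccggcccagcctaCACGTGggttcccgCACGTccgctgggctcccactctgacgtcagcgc
Bnip3, chr7:138909507-138909756, minus strand: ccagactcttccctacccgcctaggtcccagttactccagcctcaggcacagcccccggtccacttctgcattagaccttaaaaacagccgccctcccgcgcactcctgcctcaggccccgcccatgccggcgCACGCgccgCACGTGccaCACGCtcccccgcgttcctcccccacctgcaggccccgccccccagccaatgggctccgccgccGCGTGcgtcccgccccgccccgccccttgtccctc
Ankrd37, chr8:45999851-46000100, minus strand: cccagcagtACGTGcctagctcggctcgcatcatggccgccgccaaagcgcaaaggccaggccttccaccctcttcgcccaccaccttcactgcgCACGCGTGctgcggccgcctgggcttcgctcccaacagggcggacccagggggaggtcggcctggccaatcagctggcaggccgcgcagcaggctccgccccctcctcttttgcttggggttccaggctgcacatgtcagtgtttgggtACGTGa
Slc2a1, chr4:119108495-119108744, plus strand: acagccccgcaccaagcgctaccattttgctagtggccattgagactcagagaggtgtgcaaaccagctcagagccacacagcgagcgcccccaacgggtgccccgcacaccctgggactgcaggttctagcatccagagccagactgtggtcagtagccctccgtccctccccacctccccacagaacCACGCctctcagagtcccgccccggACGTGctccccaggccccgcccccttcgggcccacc

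The Ldha window held 5 matches to ACGTG, 4 of them from 2 copies of CACGTG. Bnip3 held 2 matches to ACGTG, from 1 CACGTG, and 3 to GCGTG. Ankrd37 held 2 of each and Slc2a1 1 of each. Of the remaining members, Car9 and Egln3 each had 1 match to ACGTG, Adm had 2 to GCGTG, Pdk1 had 1 to GCGTG in 1 of its 2 entries, and Vegfa had 1 of each in 1 of its 2 entries. The Vegfa matches lay before the start that is further downstream on this minus-strand gene (chr17:46025164-46025413). The window before its upstream start (chr17:46032378-46032627) held 0 matches. Vegfa thus enters the counts that follow only through the downstream start. At least 1 match to ACGTG occurred in 7 of the 12 member entries and in 16.6% of 32851 RefSeq promoters of the same length, and either set of letters in 10 of 12 and in 38.6%. The member windows were also richer in G and C (median of 59.4%, against 52.4% over all promoters), and both sets of letters contain a CG. A match describes letters and not binding.

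In scramble cells, levels of the 10 genes ranged from 863 FPKM for Ldha to 0.15 FPKM for Car9. Ldha, the lactate dehydrogenase subunit that reduces pyruvate to lactate, was followed by Vegfa, the vascular growth factor (111 ± 7.7 FPKM, SD, n = 3), and Bnip3, a mitochondrial protein that promotes mitophagy (73.0 ± 20.5). Next came Ankrd37, a small ankyrin repeat protein (38.8 ± 13.3), Slc2a1, the glucose transporter GLUT1 (23.0 ± 5.20), Adm, the precursor of the vasodilator peptide adrenomedullin (11.4 ± 4.14), and Ndufa4l2, a mitochondrial relative of the respiratory chain subunit Ndufa4 (4.23 ± 1.55). Pdk1, the kinase that inhibits pyruvate dehydrogenase, stood at 0.971 ± 0.328 FPKM. Egln3 and Car9, a cell surface carbonic anhydrase often used as a hypoxia marker, stood under 1 FPKM. Of the neighbours in this order, only the ranges of Ankrd37 and Slc2a1 overlapped among the scramble libraries.

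**Figure D1:**
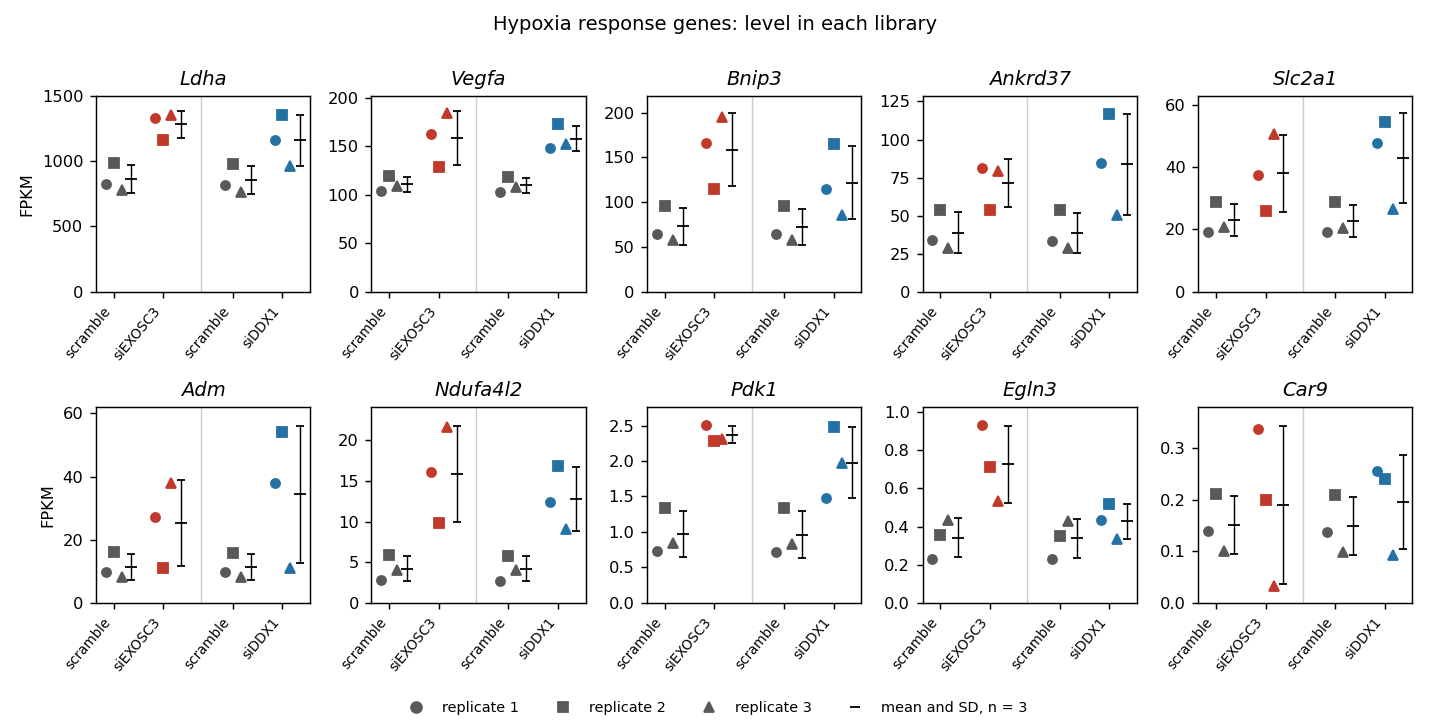
FPKM of the 10 genes in every library, in panels ordered by scramble level, each with the siEXOSC3 table on the left and the siDDX1 table on the right. Circles, squares and triangles are replicates 1, 2 and 3, and dashes with bars are the mean and SD (n = 3). Squares (replicate 2) top the scramble and siDDX1 columns and lie lowest in the siEXOSC3 columns of most panels, and Ndufa4l2 is above every scramble value in all 6 knockdown libraries.

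Ndufa4l2 lies on chr10:126951995-126954208 (NCBIM37, the sequence of mm9, plus strand). Its FPKM in scramble replicates 1, 2 and 3 was 2.76, 5.84 and 4.07. The siEXOSC3 libraries had 16.1, 9.77 and 21.7 FPKM, and the siDDX1 libraries 12.4, 16.9 and 9.10 FPKM, against 2.74, 5.80 and 4.02 for scramble in the siDDX1 table. Every knockdown library thus lay above every scramble library, with the smallest gap between siDDX1 replicate 3 or siEXOSC3 replicate 2 and scramble replicate 2. The mean was 3.75-fold higher in siEXOSC3 and 3.06-fold higher in siDDX1 (log2 fold changes of 1.67, SE 0.283, and 1.41, SE 0.249, on log2(FPKM + 1), which understates changes of low genes). By the smaller of its 2 log2 fold changes (1.41), Ndufa4l2 stood below 2 of 377 other genes that were called increased in both knockdowns. The nearest above was Egr1 (1.47) and the nearest below H2-M10.1 (1.27). This position describes how the gene was chosen.

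Ndufa4, the abundant relative whose product sits in the respiratory chain, did not pass the test in either knockdown. Its level was 873 ± 30.8 FPKM (SD, n = 3) in scramble, 907 ± 118 in siEXOSC3 and 957 ± 104 in siDDX1, with groups that overlapped in both tables (log2 fold changes of 0.05, adjusted p = 0.744, and 0.14, adjusted p = 0.373, by limma). Ndufa4l2 amounted to 0.487 ± 0.188% of Ndufa4 in scramble, 1.79 ± 0.841% in siEXOSC3 and 1.34 ± 0.406% in siDDX1. At its largest, in siEXOSC3 replicate 3, the share was 2.73%.

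The comparison of siEXOSC3 with scramble was examined next. Excluding Ndufa4l2, 7 of the 9 members passed the filter of a mean of 1 FPKM. Pdk1 was among them only through the knockdown libraries, in both tables, since its scramble mean was under 1 FPKM, so its values are given without a test and it is left out of the counts. Of the other 6, 4 rose at an adjusted p under 0.05 (limma on log2(FPKM + 1), adjusted by Benjamini-Hochberg over 11242 genes): Bnip3, Vegfa, Ankrd37 and Ldha. Slc2a1 and Adm did not pass. Over all genes tested 16.7% were called increased and 15.7% decreased. The median log2 fold change was 0.78 over the 6 members and -0.01 over all genes.

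Of the mitochondrial and metabolic members, Bnip3 (chr7:146082519-146101202, minus strand) had 64.7, 96.2 and 57.9 FPKM in scramble and 166, 115 and 195 FPKM in siEXOSC3. The groups did not overlap, and Bnip3 rose 2.17-fold (log2 fold change of 1.11, SE 0.223, adjusted p = 0.00863). Ldha (chr7:54096845-54110997, plus strand) had 826, 985 and 777 FPKM in scramble and 1333, 1166 and 1353 FPKM in siEXOSC3. It rose by 0.58 on the log2 scale (SE 0.109, adjusted p = 0.00695), and all siEXOSC3 values were above all scramble values. Pdk1 (chr2:71711281-71741915, plus strand) had 0.725, 1.34 and 0.843 FPKM in scramble and 2.51, 2.29 and 2.32 FPKM in siEXOSC3. The log2 fold change was 0.79 (SE 0.135), and the groups did not overlap. With 0.1 in place of 1 added to FPKM it was 1.25.

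Slc2a1 (chr4:118781316-118809935, plus strand) had 19.2, 28.9 and 20.8 FPKM in scramble and 37.4, 25.8 and 50.5 FPKM in siEXOSC3. Replicate 2 of siEXOSC3 lay below replicate 2 of scramble, and the difference of 0.67 (SE 0.229) was not past the threshold (adjusted p = 0.0539). Without siEXOSC3 replicate 2 it was 0.91 (adjusted p = 0.00363), and without scramble replicate 2 it was 0.84 (adjusted p = 0.0462). Without siEXOSC3 replicate 3 it was 0.44 (adjusted p = 0.101). Leaving out siEXOSC3 replicate 1, scramble replicate 1 or scramble replicate 3 gave adjusted p of 0.132, 0.169 and 0.157. The call thus changed with the library left out.

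Of the secreted members, Vegfa (chr17:46153942-46169326, minus strand) had 104, 119 and 109 FPKM in scramble and 163, 129 and 184 FPKM in siEXOSC3. The groups were apart, and Vegfa rose 1.43-fold (log2 fold change of 0.50, SE 0.124, adjusted p = 0.0179). The call was lost without siEXOSC3 replicate 1 (adjusted p = 0.0649), scramble replicate 1 (0.0735) or scramble replicate 3 (0.0643), with log2 fold changes of 0.47, 0.46 and 0.49. Adm (chr7:117771175-117773331, plus strand) varied most between the siEXOSC3 libraries. It had 9.80, 16.1 and 8.28 FPKM in scramble and 27.1, 11.01 and 38.0 FPKM in siEXOSC3, so that siEXOSC3 replicate 2 fell inside the scramble range. The log2 fold change of 0.98 (SE 0.398) did not pass (adjusted p = 0.0890), but was 1.47 without that library (adjusted p = 0.00189). Without siEXOSC3 replicate 3 it was 0.62 (adjusted p = 0.201).

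Ankrd37 (chr8:47082256-47085221, minus strand) had 33.7, 53.9 and 28.8 FPKM in scramble and 81.5, 53.5 and 79.5 FPKM in siEXOSC3. It rose by 0.89 (SE 0.232, adjusted p = 0.0214) although siEXOSC3 replicate 2 was just below scramble replicate 2. This call was lost without siEXOSC3 replicate 1 (adjusted p = 0.0776), scramble replicate 1 (0.0791) or scramble replicate 3 (0.0818), with log2 fold changes of 0.79, 0.82 and 0.71. It was also lost with the replicate number as a block (adjusted p = 0.0592) and with no filter on low FPKM (0.0618). Leaving out siEXOSC3 replicate 2 brought the number of members called from 4 to 6 of 6, while 21.2% of all genes were then called increased. Without scramble replicate 2 it was 5 (11.7% of all genes). It was 2 without siEXOSC3 replicate 1 (10.5%), scramble replicate 1 (9.12%) or scramble replicate 3 (10.5%). Without siEXOSC3 replicate 2 the log2 fold changes of Vegfa and Ankrd37 were 0.64 and 1.08, and without scramble replicate 2 they were 0.55 and 1.15. Bnip3 and Ldha passed with each library left out in turn, with log2 fold changes between 0.94 and 1.33 for Bnip3 and between 0.51 and 0.68 for Ldha. By overlap alone, 3 of the 6 members (Bnip3, Vegfa and Ldha) had all siEXOSC3 values above all scramble values, which held for 23.8% of all genes tested.

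Under the filter, Egln3 had 0.232, 0.356 and 0.436 FPKM in scramble and 0.934, 0.710 and 0.533 FPKM in siEXOSC3. The siEXOSC3 values were all above those of scramble but under 1 FPKM, and were not tested. Car9 had 0.139, 0.211 and 0.1004 FPKM in scramble and 0.338, 0.199 and 0.0320 FPKM in siEXOSC3, and the groups overlapped.

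**Figure D2:**
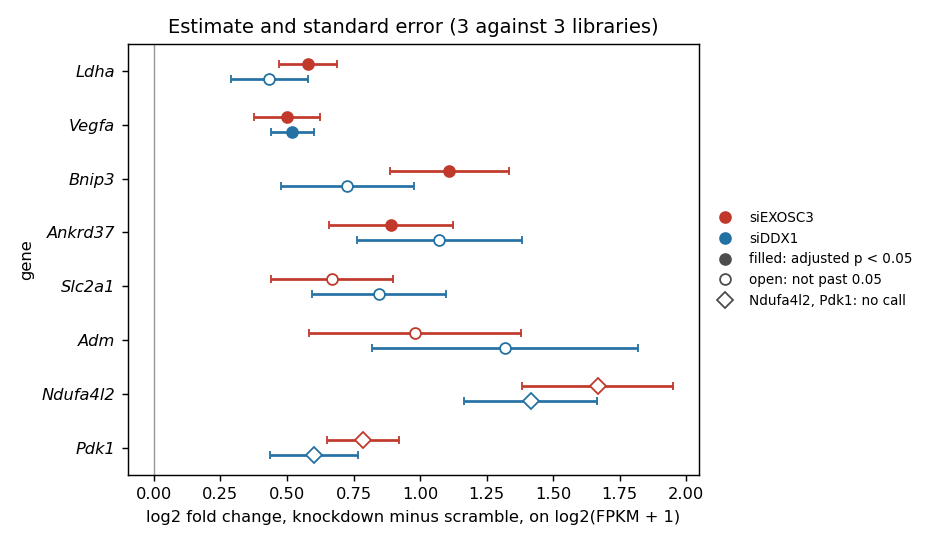
Log2 fold change (x axis, knockdown minus scramble on log2(FPKM + 1)) of the 8 members with a mean of at least 1 FPKM (y axis), in siEXOSC3 (red) and siDDX1 (blue), with bars of 1 SE. Filled circles passed an adjusted p of 0.05, open circles did not, and diamonds are Ndufa4l2, chosen on its rise, and Pdk1, which entered through the knockdown libraries. All points lie to the right of 0, and in siDDX1 only Vegfa is filled.

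The same genes were then compared between siDDX1 and scramble. Vegfa alone of the 6 members tested rose past the threshold. Bnip3, Ankrd37, Slc2a1, Ldha and Adm were not past it. With the replicate number as a block all 6 were called, where 9.77% of all genes were called increased. Over the 11104 genes tested in this table, 5.61% were called increased and 5.03% decreased. The median log2 fold change of the 6 members was 0.79, against 0.00 over all genes (-0.000587). Whether siDDX1 and siEXOSC3 differed in any member was not tested.

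Vegfa had 148, 173 and 153 FPKM in siDDX1 and 103, 118 and 108 FPKM in scramble. These groups were well apart, and Vegfa rose 1.44-fold (log2 fold change of 0.52, SE 0.0804, adjusted p = 0.01). Without scramble replicate 1 or 3 the log2 fold change was 0.48 or 0.51 and the call was lost (adjusted p = 0.0610 and 0.0566). Vegfa was also the member that varied least between the siDDX1 replicates, with an SD of 0.116 on the log2 scale, against a median of 0.116 over all genes.

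The other secreted member, Adm, had 37.9, 54.2 and 11.1 FPKM in siDDX1, and 9.72, 16.0 and 8.18 FPKM in scramble. Replicate 3 of siDDX1 lay within the scramble range, and the log2 fold change of 1.32 (SE 0.499) was the largest of the 6 without passing (adjusted p = 0.121). In siDDX1 Ankrd37 had 84.3, 117 and 50.3 FPKM against 33.4, 53.5 and 28.5 FPKM in scramble (log2 fold change of 1.07, SE 0.309, adjusted p = 0.0610). Slc2a1 had 47.7, 54.3 and 26.6 FPKM against 19.1, 28.7 and 20.5 FPKM (0.85, SE 0.251, adjusted p = 0.0670). In each of these 3 genes replicate 3 of siDDX1 was below the highest scramble library and replicates 1 and 2 were above it.

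Bnip3 showed the same order, with 115, 165 and 85.2 FPKM in siDDX1 and 64.2, 95.5 and 57.2 FPKM in scramble (log2 fold change of 0.73, SE 0.250, adjusted p = 0.0966). Ldha had 1164, 1352 and 964 FPKM against 819, 978 and 767 FPKM (0.43, SE 0.144, adjusted p = 0.0875). With quantile normalization its log2 fold change was 0.20 (adjusted p = 0.195). Here again siDDX1 replicate 3 was inside the scramble range. Pdk1, by contrast, had 1.48, 2.48 and 1.97 FPKM against 0.720, 1.33 and 0.833 FPKM and did not overlap (0.60, SE 0.164). With 0.1 in place of 1 added to FPKM its log2 fold change was 0.98. As in the other table, Pdk1 entered only through the knockdown libraries and was not tested.

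Leaving out siDDX1 replicate 3 brought the number of members called from 1 to 6 of 6. Over all genes the same omission raised the share called increased from 5.61% to 16.4% and the share called decreased from 5.03% to 15.4%. The log2 fold changes without it were 1.97 for Adm (adjusted p = 0.000574), 1.39 for Ankrd37 (0.00200), 1.15 for Slc2a1 (0.000715), 0.96 for Bnip3 (0.00670) and 0.56 for Ldha (0.00577). Without siDDX1 replicate 2 the values were lower, at 0.87 for Adm (0.307), 0.79 for Ankrd37 (0.162), 0.65 for Slc2a1 (0.184), 0.48 for Bnip3 (0.242) and 0.32 for Ldha (0.249), and Vegfa alone passed (0.45, adjusted p = 0.0384). Without scramble replicate 2 Vegfa alone passed as well (0.57, adjusted p = 0.0268), beside 1.58 for Adm (0.139), 1.33 for Ankrd37 (0.0533), 1.02 for Slc2a1 (0.0756), 0.94 for Bnip3 (0.0714) and 0.53 for Ldha (0.0988). Over all genes 1.53% were called increased and 1.46% decreased without siDDX1 replicate 2, and 2.57% and 2.13% without scramble replicate 2. The median of the 6 members was 1.05 without siDDX1 replicate 3 and 0.56 without siDDX1 replicate 2. Leaving out scramble replicate 1 or 3 brought the number called to 0 in limma, and 0.928% or 0.865% of all genes were then called increased. At an unadjusted p under 0.05 there were 3 of 6 members in each case. The share of all genes at that unadjusted threshold is not given here. Of the 6 members, 1 (Vegfa) had all siDDX1 values above all scramble values, as did 17.0% of all genes tested. Egln3 had 0.432, 0.516 and 0.334 FPKM in siDDX1 and Car9 0.255, 0.239 and 0.0918 FPKM, and both overlapped with scramble.

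Variation between replicates was itself large for these genes. On the log2 scale, the SD of the 8 members among the scramble libraries of the siEXOSC3 table ranged from 0.0985 for Vegfa to 0.459 for Adm, against a median of 0.0785 over 11242 genes. The SD of Adm, Ankrd37, Ndufa4l2, Bnip3 and Slc2a1 lay at percentiles 99.6, 99.6, 99.5, 99.2 and 98.1 of all genes. Among the siDDX1 libraries Adm reached an SD of 1.15, Ankrd37 0.605 and Slc2a1 0.534, all at or above percentile 99.2, and among the siEXOSC3 libraries Adm had 0.878 and Ndufa4l2 0.542. The exceptions in siEXOSC3 were Pdk1 and Ldha, at percentiles 15.1 and 48.2.

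The members also moved together between replicates. The median log2 difference of the 6 members other than Ndufa4l2 and Pdk1 from their scramble mean was -0.14, 0.39 and -0.22 in scramble replicates 1, 2 and 3. It was 0.90, 0.33 and 1.10 in siEXOSC3 replicates 1, 2 and 3, and 0.87, 1.23 and 0.25 in those of siDDX1. The medians of siEXOSC3 replicate 2 and siDDX1 replicate 3 were therefore below that of scramble replicate 2. The same medians over all genes tested stayed between -0.02 and 0.01. Glycolytic genes, described next, followed the same order, with 20 of 22 highest in scramble replicate 2, 20 of 22 lowest in siEXOSC3 replicate 2 and 20 of 22 lowest in siDDX1 replicate 3. Nothing in the labels separates these libraries from the others of their group.

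**Figure D3:**
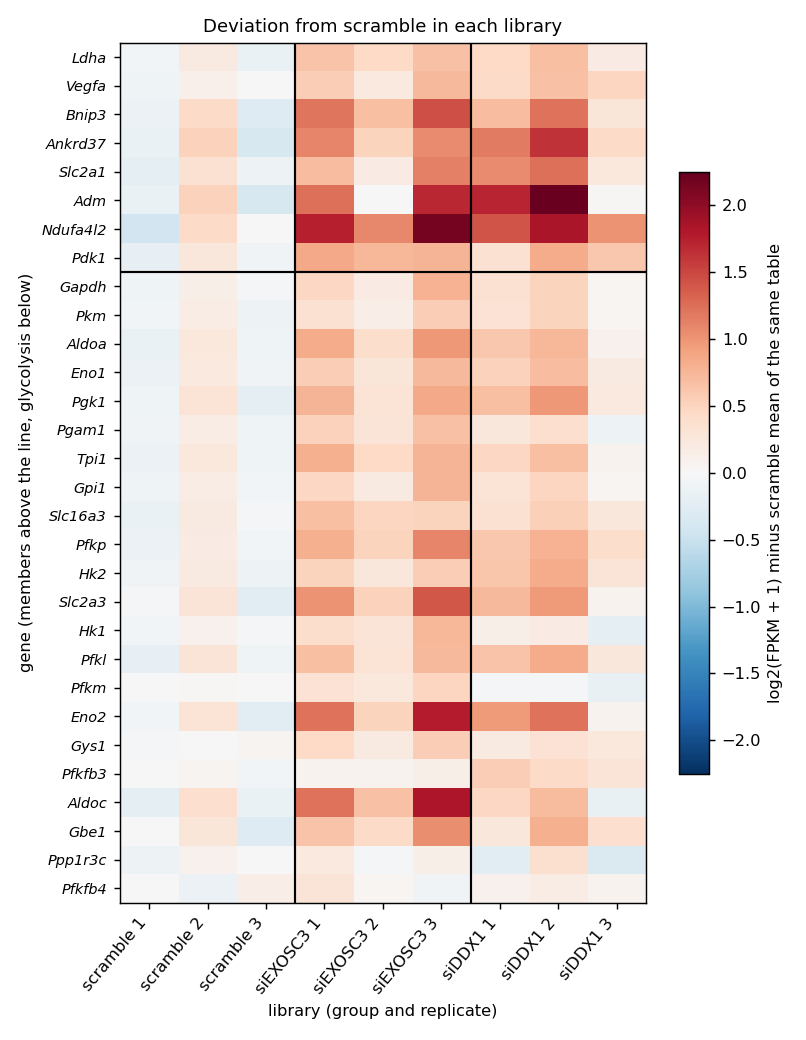
Colour gives log2(FPKM + 1) minus the scramble mean of the same table for the 8 members above the line and 22 glycolysis genes below it (rows) in each of the 9 libraries (columns), from blue (lower) to red (higher). Scramble replicate 2 is the reddest scramble column, and siEXOSC3 replicate 2 and siDDX1 replicate 3 are the palest columns of their groups.

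To place the members in their pathway, 75 further genes were examined, of which 61 passed the filter in each table: HIF factors and their regulators, glycolysis and glycogen genes, and other known targets of hypoxia. Of these 61, 36 rose and 3 fell in siEXOSC3, where 16.7% of all genes rose and 15.7% fell, with a median log2 fold change of 0.48. In siDDX1, 14 rose and 3 fell, against 5.61% and 5.03% of all genes, with a median of 0.34. The counts moved with the libraries, as did those over all genes given above. In siEXOSC3, 43 rose and 5 fell without siEXOSC3 replicate 2 (21.2% and 22.3% of all genes). Without siEXOSC3 replicate 1, 18 rose and 1 fell (10.5% and 7.72% of all genes). Without scramble replicate 1, 13 rose and 1 fell (9.12% and 5.18%), and without scramble replicate 3, 14 rose and 1 fell (10.5% and 7.17%). In siDDX1, 40 rose and 4 fell without siDDX1 replicate 3, where 16.4% and 15.4% of all genes did so. Without siDDX1 replicate 1, 3 rose and 3 fell (2.06% and 1.9% of all genes). Without siDDX1 replicate 2, 3 rose and 1 fell (1.53% and 1.46% of all genes). Without scramble replicate 1 or 3 the siDDX1 count in limma was 0, where 0.928% or 0.865% of all genes were called increased. At an unadjusted p under 0.05 there were 22 and 21 genes. The share of all genes at that unadjusted threshold is not given here, so these 2 counts cannot be set against it.

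The factors that control the response come first. Hif1a, the main alpha subunit, stood at 78.1 ± 3.53 FPKM (SD, n = 3) in scramble, 71.5 ± 6.13 in siEXOSC3 and 85.7 ± 6.64 in siDDX1, with overlapping groups and adjusted p of 0.229 and 0.222 (limma). Its partner Arnt had 8.51 ± 0.384, 7.97 ± 0.831 and 8.76 ± 0.409 FPKM, and did not pass either test. Epas1, Hif3a and Arnt2 had means under 0.04 FPKM in every group. Egln1, a hydroxylase that is itself induced in hypoxia, rose in both knockdowns, from 40.2 ± 4.64 FPKM to 51.6 ± 1.73 in siEXOSC3 (log2 fold change of 0.36, adjusted p = 0.0160) and from 39.8 ± 4.65 to 59.2 ± 8.62 in siDDX1 (0.56, adjusted p = 0.0235).

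Vhl, which recognises hydroxylated HIF, fell in siEXOSC3 from 19.5 ± 0.785 to 14.1 ± 1.296 FPKM (log2 fold change of -0.45, adjusted p = 0.00619). Hif1an, the asparaginyl hydroxylase that blocks HIF activity, fell from 11.1 ± 0.435 to 8.86 ± 0.815 FPKM (-0.30, adjusted p = 0.0282). In siDDX1 neither passed the test, with log2 fold changes of -0.10 for Vhl and 0.01 for Hif1an. Egln2 (-0.29 and -0.23) and Cited2, a competitor of HIF for its coactivator (-0.23 and -0.11), did not pass in either knockdown. Of the 7 regulators tested, 1 rose and 2 fell in siEXOSC3 (16.7% and 15.7% of all genes) and 1 rose in siDDX1 (5.61% of all genes), counts too small to set apart from these shares.

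Of 22 glycolysis and glycogen genes, all of which passed the filter, 18 rose in siEXOSC3 (16.7% of all genes), and Pkm, Pfkfb3, Pfkfb4 and Ppp1r3c did not pass. Their median log2 fold change was 0.50. In siDDX1, 4 rose (5.61% of all genes), with a median of 0.39. The largest called changes of this list in siEXOSC3 were in Aldoc, a neural aldolase, which had 5.55, 8.91 and 5.85 FPKM in scramble and 16.8, 11.1 and 25.8 FPKM in siEXOSC3 (log2 fold change of 1.23, SE 0.270, adjusted p = 0.0114), and in Eno2, the neuronal enolase, which had 38.0, 48.9 and 33.1 FPKM in scramble and 94.0, 56.1 and 137 FPKM in siEXOSC3 (1.17, SE 0.282, adjusted p = 0.0165). In both genes siEXOSC3 replicate 2 was the lowest of its group and still above scramble. Several glycolytic genes have processed pseudogenes with which reads can be shared, so the values of Ldha and of these genes may include or lack such reads.

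Of 32 other targets that were tested, 17 rose and Plod1 fell in siEXOSC3 (median 0.49), where 16.7% and 15.7% of all genes did so. In siDDX1, 9 rose and Plod1, Tfrc and Gadd45b fell (median 0.35), against 5.61% and 5.03% of all genes. These 3 falling genes are named after their values were seen, and the log2 fold changes in siDDX1 were -0.42, -0.58 and -0.56. The largest change in siEXOSC3 was in Car12, a membrane carbonic anhydrase, which rose from 6.73, 9.71 and 7.56 FPKM to 26.5, 21.0 and 35.2 FPKM (log2 fold change of 1.65, SE 0.183, adjusted p = 0.00106). Fam162a, a mitochondrial protein linked to cell death in hypoxia, rose from 227, 307 and 202 FPKM to 566, 446 and 591 FPKM (1.13, SE 0.162, adjusted p = 0.00272). Every siEXOSC3 library was above every scramble library in both genes.

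In siDDX1 the largest called change was in Ndrg1, a stress-responsive gene, which rose from 4.72, 7.13 and 4.27 FPKM to 15.1, 19.6 and 10.4 FPKM (log2 fold change of 1.32, SE 0.228, adjusted p = 0.0133). Car12 had 13.9, 18.9 and 13.2 FPKM in siDDX1 (0.87, SE 0.156, adjusted p = 0.0149), and Fam162a had 373, 496 and 357 FPKM (0.75, SE 0.172, adjusted p = 0.0307). Hmox1, the heme oxygenase that also responds to oxidative stress, rose from 123, 138 and 118 FPKM to 262, 274 and 151 FPKM (0.81, SE 0.204, adjusted p = 0.0427). In these 4 genes the groups did not overlap, and in each of them siDDX1 replicate 2 was the highest and siDDX1 replicate 3 the lowest of its group.

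**Figure D4:**
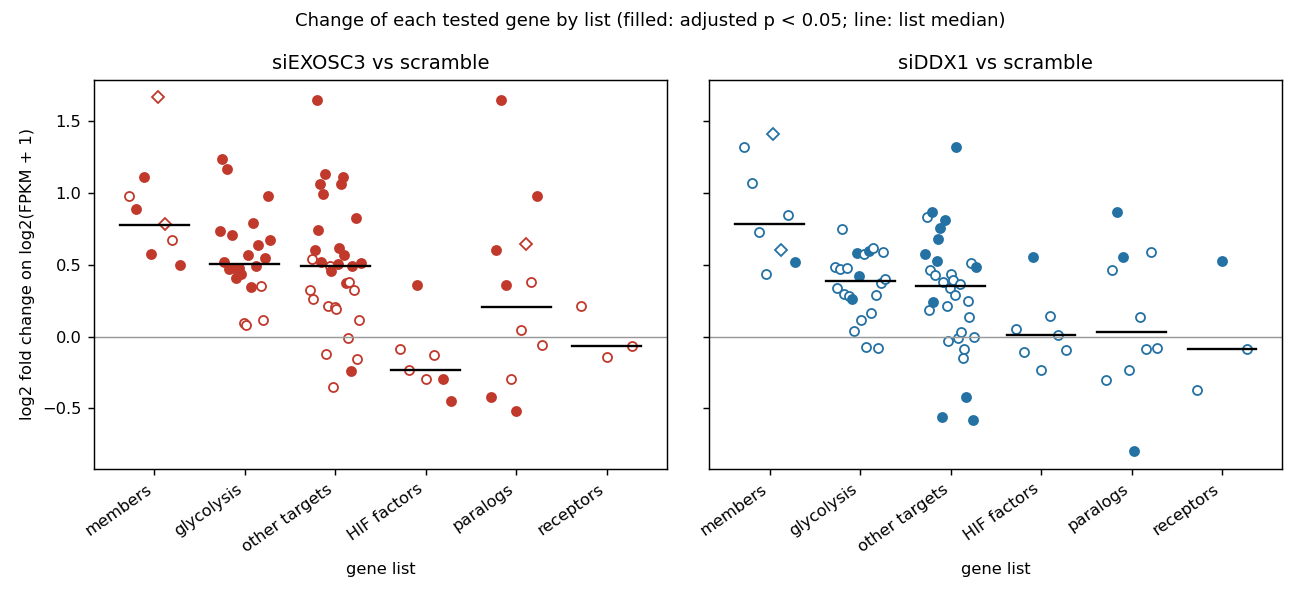
Log2 fold change (y axis) of each tested gene by list (x axis), for siEXOSC3 on the left and siDDX1 on the right. Filled points passed an adjusted p of 0.05, diamonds are Ndufa4l2, Pdk1 and, in siEXOSC3, Pdk2 (no call), and black lines are list medians without them. Member, glycolysis and other target medians lie between 0.35 and 0.79, and those of HIF factors and receptors between -0.23 and 0.01.

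Relatives of the members were compared to see which gene of a family carried the change. Of 10 paralogs tested in siEXOSC3 besides Pdk2, 4 rose (Bnip3l, Car12, Egln1 and Slc2a3) and 2 fell (Figf and Adm2), where 16.7% and 15.7% of all genes did so. Of 10 in siDDX1, 2 rose (Car12 and Egln1) and 1 fell (Figf), against 5.61% and 5.03% of all genes. All 4 that rose in siEXOSC3, and Egln2 and Pgf, also stand in the lists above and were counted there. Slc2a3, the neuronal glucose transporter GLUT3, rose in siEXOSC3 from 60.1 ± 11.3 to 122 ± 36.5 FPKM (SD, n = 3, log2 fold change of 0.98, adjusted p = 0.0109), whereas in siDDX1 it had 91.8 ± 27.1 FPKM and did not pass (0.59, adjusted p = 0.116). Bnip3l, the mitophagy receptor related to Bnip3, rose from 37.0 ± 6.50 to 56.7 ± 10.7 FPKM in siEXOSC3 (0.60, adjusted p = 0.0213) and had 51.3 ± 10.9 FPKM in siDDX1 (0.47, adjusted p = 0.1). Pdk2 had 0.905 ± 0.258 FPKM in scramble and 2.01 ± 0.689 in siEXOSC3 (log2 fold change of 0.65) and, like Pdk1, passed the filter only through those libraries, so it was not tested. In siDDX1 it was under the filter. Ldhb, Pdk3 and Pdk4 are listed at 0 in all libraries.

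Among the Vegf family, Vegfb (27.2 ± 3.06 FPKM in scramble, 26.1 ± 3.35 in siEXOSC3 and 25.4 ± 3.52 in siDDX1) and Pgf (9.93 ± 2.02, 13.3 ± 2.72 and 9.49 ± 3.22) did not pass in either knockdown. Figf, which encodes the lymphatic growth factor VEGF-D, fell in both, from 8.01 ± 0.531 to 5.34 ± 0.916 FPKM in siEXOSC3 (log2 fold change of -0.52, adjusted p = 0.0112) and from 7.93 ± 0.513 to 4.199 ± 1.05 FPKM in siDDX1 (-0.80, adjusted p = 0.0130). Adm2, which encodes a peptide related to adrenomedullin, fell in siEXOSC3 from 26.8 ± 4.41 to 19.6 ± 1.26 FPKM (-0.42, adjusted p = 0.0222) and had 21.2 ± 1.63 FPKM in siDDX1 (-0.31, adjusted p = 0.111). In both knockdowns the Figf groups did not overlap.

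Of the receptors for Vegfa and Adm, Nrp1, Nrp2 and Ramp2 passed the filter, while Flt1, Calcrl and Ramp3 had means under 0.1 FPKM in each group and Kdr, the main endothelial receptor, is listed at 0. In siEXOSC3, limma called 0 of the 3, where 16.7% of all genes rose and 15.7% fell. The count at an unadjusted p under 0.05 was also 0, and the share of all genes at that threshold is not given here. In siDDX1, 1 of the 3 was called, where 5.61% rose and 5.03% fell. Nrp2, a neuropilin that also serves axon guidance, rose in siDDX1 from 73.1 ± 4.93 to 106 ± 15.6 FPKM (SD, n = 3, log2 fold change of 0.53, adjusted p = 0.0224). Nrp1 (log2 fold changes of 0.21 in siEXOSC3 and -0.37 in siDDX1) and Ramp2 (-0.07 and -0.09) did not pass.

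The genes most like Ndufa4l2 were sought among 11053 others tested in both tables, by the smaller of the 2 Pearson correlations of log2(FPKM + 1) over the 6 libraries of each table. They were Galk1, galactokinase (smaller r of 0.995), Pfkp, the platelet-type phosphofructokinase (0.993), Kalrn (0.990), Plekhg5 (0.986) and Car12 (0.985). Scramble is common to both tables, and the 6 points of a table form 2 groups, so these values describe order among libraries and group differences together. Galk1 had a mean of 16.8 FPKM in scramble and 28.8 FPKM in siEXOSC3, and Pfkp 74.6 and 131 FPKM. In the siDDX1 table the means of Galk1 were 16.7 and 27.3 FPKM, and those of Pfkp 73.9 and 112 FPKM.

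Since the libraries were not strand-specific, genes that overlap members were checked (NCBIM37). Ndufa4l2 shares 14 of its 960 exonic bases with Shmt2 on the opposite strand. Shmt2, a mitochondrial enzyme of folate metabolism, fell in siEXOSC3 from 155 ± 9.21 to 120 ± 2.62 FPKM (SD, n = 3, log2 fold change of -0.37, adjusted p = 0.00605), and did not pass in siDDX1 (0.09, adjusted p = 0.442). Ankrd37 shares 349 of its 1403 exonic bases with Lrp2bp and 57 with Ufsp2, both on the opposite strand. Lrp2bp stood at 1.29 ± 0.144 FPKM in scramble and did not pass in either knockdown, while Ufsp2 rose in both, from 47.2 ± 0.481 to 69.5 ± 5.85 FPKM in siEXOSC3 (0.55, adjusted p = 0.00217) and from 46.7 ± 0.539 to 55.3 ± 2.64 FPKM in siDDX1 (0.24, adjusted p = 0.0392). Slc2a1 shares 105 of its 2853 exonic bases with Gm12868, and Car9 214 of its 2304 with Gm12454, again on the opposite strand, and neither partner has a row in the tables under that symbol. The part of such reads in the values of these members was not tested.

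Some marker genes of the line and of other cell types differed from scramble as well. For the neural markers this held mainly in siEXOSC3, and in siDDX1 their median log2 fold change was -0.08. The summed FPKM of the 10 N2A neural markers was 361 to 396 in scramble and 606 to 641 in siEXOSC3, where 5 of 8 tested rose (16.7% of all genes), and 387 to 427 in siDDX1 (358 to 391 in the scramble libraries of that table), where 1 of 8 rose (5.61% of all genes). The 5 immune markers summed to 46.8 to 66.1 FPKM in scramble, 73.3 to 128 in siEXOSC3 and 90.8 to 144 in siDDX1, nearly all of it from Cd74. Cd68, the other immune marker that reached 1 FPKM, was lower in the knockdowns, with means of 1.18 FPKM in scramble and 0.645 in siEXOSC3, and 1.17 and 0.669 for siDDX1, and the libraries overlapped (under the filter, not tested). The 5 endothelial markers summed to 4.11 to 4.77, 6.24 to 9.20 and 5.04 to 5.77 FPKM, nearly all from Pecam1. Pecam1 passed in siEXOSC3 (adjusted p = 0.00827 by limma) and not in siDDX1 (adjusted p = 0.0687). The 5 fibroblast markers stayed under 0.7 FPKM in total, with Col1a2, Col3a1 and Lum listed at 0. The part of these shifts in the levels of the hypoxia genes was not tested.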

How the data were processed

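The submitters aligned paired reads from nondirectional, ribosome-depleted libraries to mm9 with TopHat2 version 2.1.0 and ran Cuffdiff version 2.2.1 for each knockdown against scramble. The authors deposited FPKM per gene and library in 2 tables, each with 1 knockdown and the 3 scramble libraries. The annotation and the normalization within Cuffdiff are not given in the sources used here. Because FPKM are no counts, count models were left aside, and with the depth reached not given no counting interval is given.

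From the deposited FPKM, log2(FPKM + 1) of genes that averaged 1 FPKM or more entered limma (version 3.58.1, run in R version 4.3.3, eBayes with an intensity trend and no covariates) over the 6 libraries of a table. Two-sided p-values were adjusted by Benjamini-Hochberg over all genes tested, with a threshold of 0.05. P-values measure the spread between 3 plates per group. Whether each plate was transfected on its own is not stated in the sources used here. For 3 against 3 libraries the smallest p of an exact permutation test is 0.1.

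The members, lists and tests were chosen with earlier results of these data known. Text names all 10 members, regulators, paralogs and receptors with a mean of at least 1 FPKM, the 4 largest called changes per knockdown in the glycolysis and other target lists combined, and the 5 genes most like Ndufa4l2. Pdk1, and Pdk2 in siEXOSC3, passed the filter only through knockdown libraries and were left out of counts of called genes. Egr1 and H2-M10.1 are its neighbours in rank. Positions came from GENCODE vM1 on NCBIM37, promoters from RefSeq on GRCm38.p6. On simulated data the fit called 193 of 200 genes changed by a log2 fold change of 1 among 11242 genes for siEXOSC3 (96.5%) and 189 of 200 among 11104 for siDDX1 (94.5%), with 0 of the wrong sign and 10 unchanged genes called in each. The simulated noise was normal and independent between genes, and the changed genes averaged 5 FPKM or more. The members moved together between replicates, so these rates need not hold for them. Alternatives were a pseudocount of 0.1, no filter, an average of 5 FPKM or more, centring on the median, quantile normalization, a block for the replicate number, a fit without intensity trend, an adjusted p under 0.01, and leaving out each library. A loess fit of GC content and length (span 0.3), subtracted from each library, was added after seeing the data. Figures used matplotlib version 3.10.9.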

Additional observations from a re-analysis of the deposited data

Results flagged for a closer look

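In 2 of the 86 listed genes that passed the filter in both tables (2.33%), every siEXOSC3 library lay above every scramble library while every siDDX1 library lay below, and the difference between the knockdowns was not tested. The same pattern was present in 167 of all 11054 genes tested in both tables (1.51%), and the opposite one in 0 of the 86 and 143 of the 11054 (1.29%). Pfkm, the muscle-type phosphofructokinase of the glycolysis list, had log2 fold changes of 0.35 in siEXOSC3 and -0.07 in siDDX1. Isl1, a homeobox gene among the neural markers, had log2 fold changes of 0.68 and -0.15. In siDDX1 neither gene passed the test (adjusted p = 0.457 and 0.313 by limma).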

How the results depend on the processing

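The log2 fold changes of the 6 members other than Ndufa4l2 and Pdk1 kept their sign under every alternative run. Those of Ndufa4l2 and Pdk1 also did so wherever they were fitted. However, Ndufa4l2 was chosen on its rise, and Pdk1 passed the filter only through the knockdown libraries. Pdk1 was not among the genes averaging 5 FPKM or more. Car9 and Egln3 were fitted only without the filter, and those estimates are not given here. The 4 of 6 members called in siEXOSC3 became 2 at an adjusted p under 0.01 (7.73% of all genes increased, against 16.7%), and 2 to 6 when a library was left out. The 39 further genes became 12 at 0.01 (11 increased and 1 decreased, against 7.73% and 4.27% of all genes), and 14 to 48 when a library was left out. In siDDX1 the 1 of 6 members called became 0 at 0.01 (0.901% of all genes increased, against 5.61%). At an unadjusted p under 0.05 in limma there were 6 of 6, and the share of all genes at that threshold is not given here. The number called ranged from 0 to 6 when a library was left out. The 17 further genes became 8 with no filter on low FPKM (5 increased and 3 decreased, against 2.28% and 1.94% of all genes), 1 increased at 0.01, and 0 to 44 when a library was left out. With the replicate number as a block, 3 members and 26 further genes were called in siEXOSC3, where 12.4% of all genes increased and 9.42% decreased, and 6 and 36 in siDDX1, where 9.77% and 7.28% did so, against 5.61% and 5.03% without the block. Deviations of same-numbered libraries correlated at 0.035, -0.31 and -0.126 for siEXOSC3, where no replicate correlated best with its own number. For siDDX1 they correlated at -0.012, 0.379 and 0.372. There replicates 2 and 3 correlated best with their own number and replicate 1 did not. Whether replicate numbers pair the libraries in siDDX1 cannot be told from these values. Ankrd37 in siEXOSC3 was not called with the block (adjusted p = 0.0592) or with no filter (0.0618). The cause of these shifts was not tested. Over all genes, called increases and decreases moved from 1877 and 1767 to 2016 and 1517 in siEXOSC3 after centring, and from 623 and 559 to 747 and 458 in siDDX1. Ndufa4l2 ranged from 1.42 to 1.96 in siEXOSC3 and from 1.2 to 1.63 in siDDX1. Removal of the GC and length trend (added after seeing the data) left the counts of members called at 4 and 1.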
